A study of Homo sapiens with 12 samples.

Results

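The MYC and MAX network is a set of 10 genes for basic helix-loop-helix leucine zipper proteins, chosen by name: the activators MYC and MYCL, the shared partners MAX and MLX, and the antagonists MXD1, MXI1, MXD3, MXD4, MNT and MGA. They are 10 of the 63568 genes in the expression table, and all 10 were expressed above the limit for testing. The 12 RNA-seq libraries come from LNCaP, a human line that grows in response to androgen and was taken from a lymph node metastasis of prostate cancer. At 72 h and at 144 h after the first transfection cells had received either a pool of non-targeting siRNAs (si-NT, 2 libraries) or 1 of 2 siRNAs to SMARCA4 (2 libraries each), the gene that encodes the chromatin remodelling ATPase BRG1. At each time point, the 4 libraries from SMARCA4 siRNA form the BRG1 depleted group. Every group was transfected, and the cells of the 144 h groups were also split and transfected again at 72 h. The table numbers the siRNAs 2 and 3, which siRNA of the sample titles each is was not stated, and the labels of 1 library at 72 h name both siRNAs. The labels do not say whether duplicates were separate cultures, so p-values measure the spread between these libraries, which may be technical.

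MYC proteins bind DNA mainly as a pair with MAX. The MYC:MAX pair binds the E-box, a 6-base DNA element with the core letters CACGTG, and activates genes for ribosome assembly, metabolism and cell division. MAX also pairs with the MXD proteins, MNT and MGA, which bind the same element and repress it, mostly through the SIN3 corepressor or, for MGA, a Polycomb complex. MLX forms a parallel branch with the glucose-responsive factors MondoA and ChREBP. MYC lies on 8q24, a region often gained in prostate cancer.

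Expression is given as TPM, a transcript abundance that is scaled to gene length and so allows levels of different genes to be compared. Read depth is not kept in TPM, so the depth and counting error of each library are unknown, and 14706 to 15355 genes per library were at 1 TPM or more. Changes are log2 fold changes on log2(TPM + 1), which understates the change of genes at low levels, and a gene was called at a Benjamini-Hochberg adjusted p under 0.05 over the 16337 genes tested with limma. SMARCA4 was at 73.44 to 106.59 TPM in the 4 si-NT libraries and at 11.42 to 21.7 TPM in the 8 BRG1 depleted libraries. Every library thus matched its label as si-NT or BRG1 depleted, while its siRNA number, time point and replicate cannot be checked this way. Of cell type markers, the luminal keratin gene KRT8 was at 303.36 TPM or more in every library, while KRT5, KRT14, TP63, PTPRC and CD14 were at 0.33 TPM or less. Of 8 luminal markers, 2 were called higher at 144 h by limma, among them KRT8 at 0.56, and of 8 basal, stromal and blood markers 2 were tested, VIM at 53.71 to 96.42 TPM and COL1A1 at 3.1 to 9.11 TPM, neither of them called.

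MYC fell after BRG1 depletion, and the level was lower at 144 h than at 72 h. MXI1 also fell at 144 h, whereas MYCL rose at both time points and MXD4 rose at 144 h. At 72 h, 2 of the 10 genes were called, 1 lower and 1 higher, where 1.68% of all tested genes were called, 0.557% lower and 1.13% higher. At 144 h, 4 of the 10 were called, 2 lower and 2 higher, where 24.4% of all tested genes were called, 10.8% lower and 13.6% higher. None of the 10 passed the study's log2 fold change limit of 1.5 at either time point in this limma fit of the deposited TPM. Of all tested genes, 0.165% and 1.1% passed both limits. This log2 limit is that of the paper's results, whereas its methods name a fold change of 1.5 with a stricter adjusted p limit. Read as a fold, MYC (0.461), MYCL (1.64) and MXD4 (1.71) lay beyond 1.5 in either direction at 144 h, and MYCL (2.04) at 72 h. The share of all tested genes beyond that fold was not counted. The study's own counts were normalised to ERCC spike-in RNA. With TPM scaled to the spike-ins, MYC did pass the log2 limit of 1.5 at 144 h, at -1.52 (adjusted p = 0.00948, limma). Relative to the median gene on that scale it was at -1.21, short of the limit. In si-NT cells, 0 of the 10 genes differed between 144 h and 72 h by limma, and 0 had an unadjusted p under 0.05, where 4.11% of tested genes did.

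**Figure D1:**
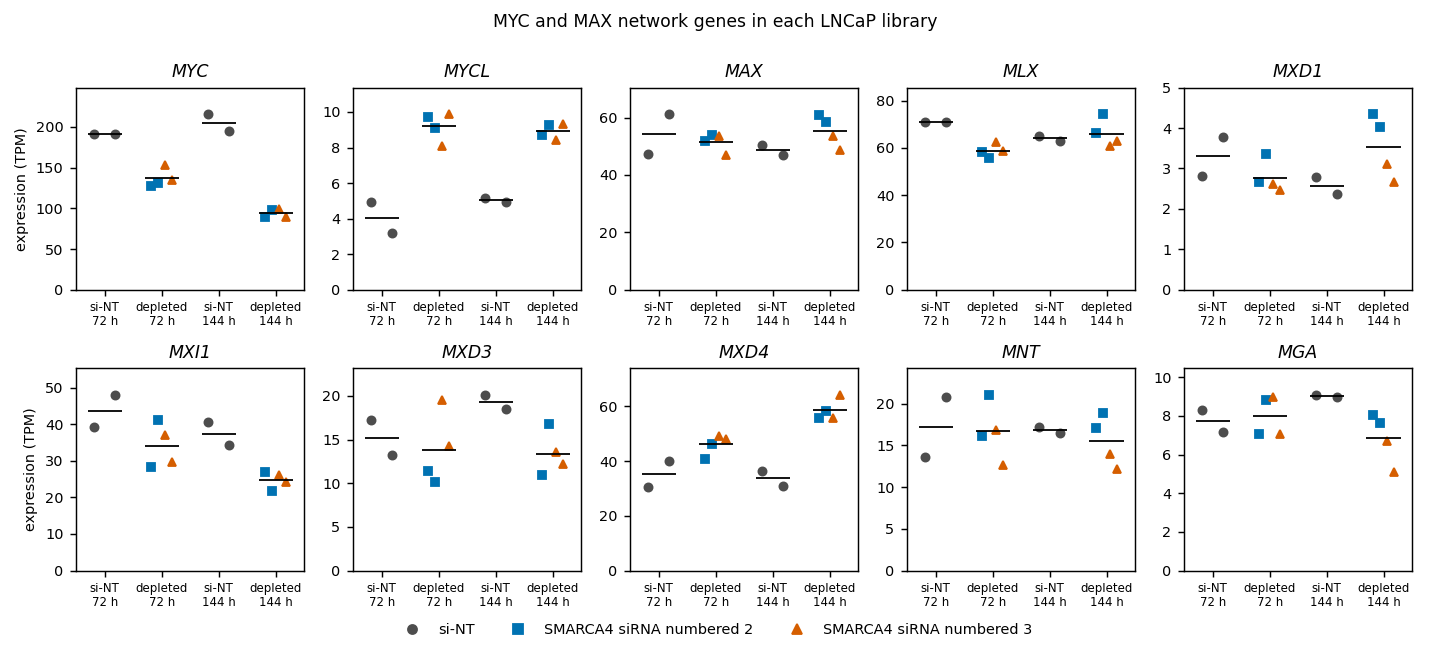
Expression of the 10 network genes in TPM (vertical axes, each from 0) in the 4 groups (horizontal axis). Each point is 1 library, circles are si-NT, squares and triangles are the SMARCA4 siRNAs numbered 2 and 3, and bars are group means. The 4 BRG1 depleted libraries at 144 h sit between 88.89 and 99.75 TPM for MYC, all below the si-NT libraries, and between 55.72 and 64.28 TPM for MXD4, all above them.

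In si-NT cells MYC was the most abundant of the 10 transcripts, with a mean of 198 TPM over 4 libraries, above 96% of the tested genes. MLX followed at 67.6 TPM, MAX at 51.5, MXI1 at 40.5, MXD4 at 34.5, MXD3 at 17.3, MNT at 17, MGA at 8.39, MYCL at 4.56 and MXD1 at 2.94 TPM. The ranges over the 4 si-NT libraries overlapped between these neighbours: MAX and MXI1, MXI1 and MXD4, MXD3 and MNT, and MYCL and MXD1. The other neighbours in this order did not overlap. In BRG1 depleted cells at 144 h MYC was still first, at 94.1 TPM, and MXD4 had moved from the fifth to the third place, at 58.5 TPM. The range of MXD4 there, 55.72 to 64.28 TPM, overlapped those of MLX (61.02 to 74.43 TPM) and MAX (48.78 to 60.89 TPM).

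MYC (ENSG00000136997.10, chromosome 8 of GRCh37 from 128747680 to 128755197) was at 191.51 and 191.11 TPM in the si-NT libraries at 72 h, and at 215.91 and 194.79 TPM at 144 h. In BRG1 depleted cells at 72 h it was at 128 and 130.53 TPM with siRNA 2 and at 153.5 and 134.42 TPM with siRNA 3. At 144 h it was at 89.2 and 98.45 TPM with siRNA 2 and at 99.75 and 88.89 TPM with siRNA 3. All 4 BRG1 depleted libraries of each time point lay below all 4 si-NT libraries, and the depleted libraries of 144 h lay below those of 72 h. The mean level was 28.6% lower than in si-NT cells at 72 h, or -0.49 on the log2 scale (standard error, SE, 0.09, adjusted p = 0.0292, limma), and 54.2% lower at 144 h, or -1.12 on the log2 scale (SE 0.09, adjusted p = 3.86e-05, limma). The change at 144 h differed from that at 72 h by -0.63 on the log2 scale (SE 0.13), which had an unadjusted p of 0.000504 and an adjusted p of 0.189 (limma).

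The MYC change at 144 h was nearly the same with each siRNA, -1.12 with siRNA 2 (adjusted p = 0.00031, limma) and -1.11 with siRNA 3 (adjusted p = 0.000434, limma), against the same si-NT libraries, and the siRNAs differed by 0.01 (SE 0.10, adjusted p = 0.988, limma). At 72 h it was -0.56 (adjusted p = 0.0354, limma) and -0.41 (adjusted p = 0.121, limma), where 1.57% and 0.655% of tested genes were called, and the siRNAs differed by 0.15 (SE 0.10, adjusted p = 0.752, limma). The call at 144 h was kept in all 22 alternatives, from -1.52 to -1.04. The call at 72 h was lost in 8 of 22: without si-NT replicate 1 (adjusted p = 0.146) or replicate 2 (0.161) of 72 h, siRNA 2 replicate 1 (0.0631) or 2 (0.0582) of 72 h, siRNA 3 replicate 2 of 72 h (0.0749), si-NT replicate 2 of 144 h (0.0501), with only the libraries of 72 h (0.146), and with scaling to the ERCC spike-ins (1), all by limma.

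MYCL (ENSG00000116990.9, chromosome 1 of GRCh37 from 40361100 to 40367928), a MYC family member of more restricted expression, changed the opposite way at a far lower level. It was at 4.95, 3.17, 5.15 and 4.96 TPM without depletion (si-NT) and between 8.06 and 9.89 TPM in the 8 BRG1 depleted libraries, so that the groups did not overlap at either time point. On the log2 scale it differed from si-NT by 1.03 at 72 h (SE 0.14, adjusted p = 0.00575, limma) and by 0.71 at 144 h (SE 0.14, adjusted p = 0.00463, limma). The lowest si-NT library, replicate 2 of 72 h, bears on the earlier value, which was 0.77 without it (adjusted p = 0.0626, limma). The call at 144 h was lost without si-NT replicate 2 of 144 h (adjusted p = 0.0588, limma). At 144 h its mean rose by 3.88 TPM while that of MYC fell by 111 TPM, and the ratio of MYC to MYCL went from between 38.7 and 60.3 in si-NT cells to between 9.52 and 11.8 at 144 h.

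The shared partners MAX and MLX were not called at either time point. MAX (ENSG00000125952.14), the partner with which MYC binds the E-box, was at 47 to 61.28 TPM in si-NT libraries and at 46.91 to 60.89 TPM in BRG1 depleted libraries. Its log2 fold change was -0.07 at 72 h (95% interval -0.33 to 0.20) and 0.18 at 144 h (95% interval -0.08 to 0.44). MLX (ENSG00000108788.7) was at 71 and 71.01 TPM in si-NT cells at 72 h and at 58.28, 55.7, 62.5 and 58.57 TPM in the BRG1 depleted libraries, all lower than the 4 si-NT libraries. That difference of -0.27 had an adjusted p of 0.181 and an unadjusted p of 0.0118 (limma), and at 144 h the groups overlapped, with a log2 fold change of 0.04 (95% interval -0.16 to 0.24). With scaling to the ERCC spike-ins, RNA added in equal amount to each sample, MAX and MLX were at -0.22 and -0.36 at 144 h, neither of them called.

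The MXD antagonists, which repress E-box genes with MAX, did not move together. MXD4 (ENSG00000123933.10, chromosome 4 of GRCh37 from 2249159 to 2263836) was at 30.49, 40.1, 36.49 and 31.03 TPM in the si-NT libraries. It was at 40.87, 46.29, 49.35 and 48.04 TPM in the BRG1 depleted libraries at 72 h, and at 55.72, 58.32, 55.76 and 64.28 TPM at 144 h. The depleted libraries of both time points were above every si-NT library. On the log2 scale it differed from si-NT by 0.39 at 72 h (SE 0.12, adjusted p = 0.166, limma) and by 0.78 at 144 h (SE 0.12, adjusted p = 0.00152, limma), with 0.74 for siRNA 2 and 0.81 for siRNA 3 at 144 h. With all 4 si-NT libraries as 1 control group, MXD4 was also called at 72 h (0.41, adjusted p = 0.0255, limma).

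MXI1 (ENSG00000119950.16, chromosome 10 of GRCh37 from 111967363 to 112047123) fell at 144 h. It was at 39.16, 48.05, 40.49 and 34.32 TPM in the si-NT group as a whole, and at 27.03, 21.8, 26.05 and 24.33 TPM in the BRG1 depleted libraries at 144 h, with no overlap. At 72 h the depleted libraries, at 28.4, 41.24, 37.07 and 29.79 TPM, overlapped the si-NT libraries. On the log2 scale it differed from si-NT by -0.35 at 72 h (SE 0.16, adjusted p = 0.331, limma) and by -0.57 at 144 h (SE 0.16, adjusted p = 0.0218, limma). This call rested on both control libraries: the adjusted p was 0.179 without si-NT replicate 1 and 0.0718 without si-NT replicate 2 of 144 h (limma), and neither siRNA alone was called (adjusted p = 0.057 and 0.0778, limma).

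MXD3 (ENSG00000213347.6) was at 20.13 and 18.5 TPM in si-NT cells at 144 h and at 10.92, 16.73, 13.56 and 12.23 TPM in BRG1 depleted cells, or -0.52 on the log2 scale (SE 0.23, adjusted p = 0.122, limma). With depletion every library was lower than either si-NT library of 144 h, and 2 of the 4 were also lower than the lowest of 72 h, at 13.24 TPM. MXD3 lies across the more abundant PRELID1 (opposite strand, mean 309 TPM) and RAB24 (same strand, mean 45.7 TPM), and MXD1 across SNRNP27 (same strand, mean 39.8 TPM), and whether counting used strand was not given in the sources used here, so the levels of MXD3 and MXD1 are uncertain. MXD1 (ENSG00000059728.6), which was first named MAD, was the lowest of the 10 genes and split by siRNA at 144 h: 4.35 and 4.03 TPM with siRNA 2, 3.1 and 2.67 TPM with siRNA 3, and 2.78 and 2.37 TPM with si-NT. Its log2 fold change was 0.33 with both siRNAs (adjusted p = 0.207, limma) and 0.54 with siRNA 2 alone (adjusted p = 0.0475, limma), where 21.3% of tested genes were called.

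MNT (ENSG00000070444.10), a widely expressed antagonist, was at 13.57 to 20.8 TPM in si-NT libraries and at 12.11 to 21.06 TPM in BRG1 depleted libraries, with log2 fold changes of -0.03 (95% interval -0.51 to 0.44) and -0.13 (95% interval -0.60 to 0.35). MGA (ENSG00000174197.12), the largest protein of the network, was at 9.1 and 8.99 TPM in si-NT cells at 144 h and at 8.04, 7.64, 6.73 and 5.11 TPM in BRG1 depleted cells. All 4 were below both si-NT libraries of that time point, but si-NT replicate 2 of 72 h was at 7.19 TPM. The log2 fold change of MGA was -0.37 at 144 h (SE 0.16, adjusted p = 0.128, limma), and with siRNA 3 alone it was -0.55 (adjusted p = 0.0468, limma), where 20.2% of tested genes were called. MGA was also called lower at 144 h with median-of-ratios scaling (-0.40, adjusted p = 0.044, limma) and with quantile scaling (-0.41, adjusted p = 0.0297, limma). None of the 10 genes differed between the siRNAs at an adjusted p under 0.05 at either time point (limma), where 0.141% and 0.331% of tested genes did, and 1 gene at each time point had an unadjusted p under 0.05, MXD3 at 72 h and MXD1 at 144 h.

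**Figure D2:**
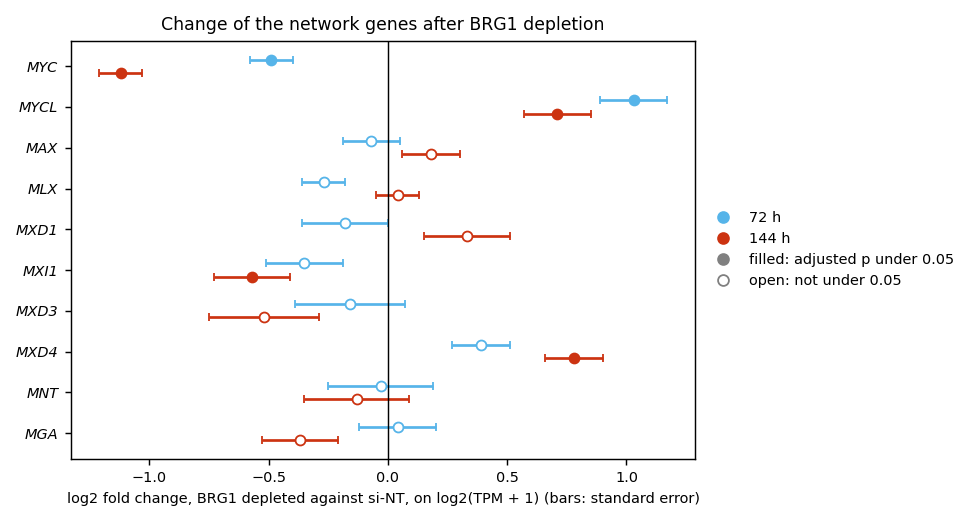
Log2 fold change of each network gene on log2(TPM + 1) (horizontal axis) at 72 h (blue) and 144 h (red), BRG1 depleted (4 libraries) against si-NT (2 libraries). Bars are standard errors from limma, filled points have an adjusted p under 0.05 and open points do not. MYC is at -0.49 and -1.12, MYCL at 1.03 and 0.71, MXD4 at 0.78 and MXI1 at -0.57 at 144 h.

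Counted by overlap, 2 of the 10 genes (MYC and MLX) were lower and 2 (MYCL and MXD4) higher in all 4 BRG1 depleted libraries at 72 h than in all 4 si-NT libraries, where 4.43% and 11.5% of tested genes were. At 144 h, 2 (MYC and MXI1) were lower and 2 (MYCL and MXD4) higher, where 12.7% and 17.2% of tested genes were. The change at 144 h differed from that at 72 h for 0 of the 10 genes at an adjusted p under 0.05 (limma), where 0.0184% of tested genes did. Below 0.05 without adjustment were 3 genes, MYC, MXD4 (a difference of 0.39) and MLX (0.31), where 11.9% of tested genes were.

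Set against its antagonists, MYC took a smaller share of the network's transcripts. MYC and MYCL together made up 63.8% and 59.3% of the summed TPM of MYC, MYCL and the 6 antagonists in si-NT cells at 72 h, and 63.7% and 64.1% at 144 h. In BRG1 depleted libraries the share was 51.6% to 56.4% at 72 h and 44.3% to 47.6% at 144 h. The groups did not overlap. The summed level of the 6 antagonists was 112 to 133 TPM in si-NT libraries, 107 to 134 TPM in BRG1 depleted libraries at 72 h and 119 to 127 TPM at 144 h, so these ranges overlapped while the rise of MXD4 and the fall of MXI1 lay within the sum. MYC transcripts per MAX transcript were 3.12 to 4.27 in si-NT libraries, 2.43 to 2.87 at 72 h and 1.46 to 1.86 at 144 h. MYC transcripts per MXD4 transcript were 4.77 to 6.28, 2.8 to 3.13 and 1.38 to 1.79. These are ratios of mRNA, and the proteins were not measured in these libraries.

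**Figure D3:**
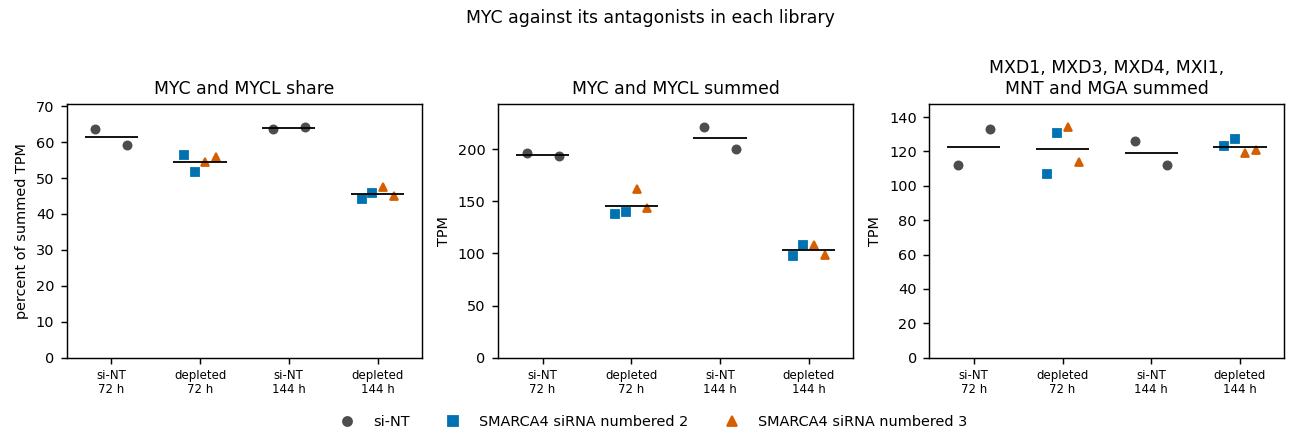
The summed TPM of MYC and MYCL as a percent of their sum with the 6 antagonists (left), the summed TPM of MYC and MYCL (middle) and that of the 6 antagonists (right) in each library, with group means as bars. The share lies between 59.3% and 64.1% in si-NT libraries and between 44.3% and 47.6% in BRG1 depleted libraries at 144 h, while the antagonist sum lies between 107 and 134 TPM throughout.

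Changes of single genes depend on what TPM is scaled to. ERCC spike-in RNA made up 1.03% and 1.1% of the TPM total in the si-NT libraries of 72 h, and 0.805% and 1.34% in those of 144 h. In BRG1 depleted libraries it made up 1.12% to 1.34% at 72 h and 1.04% to 1.97% at 144 h. Scaling to the spike-ins moved the median change over all tested genes from 0.06 to -0.11 at 72 h and from 0.03 to -0.31 at 144 h. On that scale MYC was at -1.52 at 144 h (adjusted p = 0.00948, limma), which is -1.21 relative to the median gene against -1.14 on the TPM scale. MYCL (0.36, adjusted p = 0.484), MXD4 (0.38, adjusted p = 0.462) and MXI1 (-0.97, adjusted p = 0.0804) were no longer called by limma, and relative to the median gene they were at 0.67, 0.70 and -0.65, against 0.69, 0.75 and -0.60 on the TPM scale. The shares and ratios within the network are the same on either scale.

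Outside the 10 genes, MYCN, the family member of neural tissue, was listed at 0 TPM in every library. MLXIP, which encodes the MLX partner MondoA, was called higher at 144 h, from a mean of 29.3 to 39 TPM (log2 fold change 0.40, SE 0.12, adjusted p = 0.0271, limma), and MLXIPL, which encodes ChREBP, was at 0.33 (adjusted p = 0.305, limma). Of 3 genes activated by MondoA and MLX, 0 were called at either time point by limma and 1, ARRDC4, had an unadjusted p under 0.05 at 144 h, where it was at 0.62. TXNIP, the best known of them, was at 25.12 and 1.23 TPM in the 2 si-NT libraries of 72 h, and at 3.11 TPM in siRNA 2 replicate 2 of 72 h against 29.62 to 47.35 TPM in the other 3 depleted libraries. At 72 h this spread between duplicates was larger than the difference between groups. At 144 h TXNIP was at 38.04 and 36.84 TPM in si-NT libraries and at 65.65, 57.32, 56.65 and 46.58 TPM in BRG1 depleted libraries, all 4 of them higher, with a log2 fold change of 0.57 (SE 0.97, adjusted p = 0.712, limma) whose error is shared with the libraries of 72 h.

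The E-box was looked for in RefSeq promoter windows of GRCh38.p14, 250 bases before to 50 after each start site, as the letters CACGTG, which read the same on both strands. Windows were matched by symbol for 9 of the 10 genes, all but MYC, and 3 of the 9, MXD4, MNT and MLX, held CACGTG, where 8.77% of all 27305 genes with a window did. With the related letters CACGCG on either strand added, 6 of the 9 held a match, against 20.3% of all genes. Among MYC-activated genes with a window, CACGTG was found for 11 of 24 nucleolar, 11 of 20 metabolic and 4 of 9 cell cycle genes. It was also found for 3 of 9 genes that MYC represses. With CACGCG added, the counts were 13 of 24, 11 of 20, 5 of 9 and 6 of 9, so matches were not limited to activated genes. Activated genes are known as MYC targets partly for their E-boxes, and HSPD1 and HSPE1, like PPAT and PAICS, start close to each other. The 250 bases before the start site are shown for the 3 network genes with CACGTG, of which 1 rose and 2 were not called, and for LDHA, a MYC target with 2 copies that fell. Capitals mark CACGTG.
MXD4 (chr4:2262110-2262359, minus strand): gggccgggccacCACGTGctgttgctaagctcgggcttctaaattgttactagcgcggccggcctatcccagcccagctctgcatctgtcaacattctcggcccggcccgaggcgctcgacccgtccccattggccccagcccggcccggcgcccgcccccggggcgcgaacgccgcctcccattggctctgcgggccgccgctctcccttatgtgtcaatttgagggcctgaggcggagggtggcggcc
MNT (chr17:2401061-2401310, minus strand): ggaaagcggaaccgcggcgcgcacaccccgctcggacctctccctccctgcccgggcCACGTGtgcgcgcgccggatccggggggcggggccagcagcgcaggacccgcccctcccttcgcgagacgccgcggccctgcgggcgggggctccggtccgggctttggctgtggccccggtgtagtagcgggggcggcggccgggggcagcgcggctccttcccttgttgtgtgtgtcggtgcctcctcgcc
MLX (chr17:42566850-42567099, plus strand): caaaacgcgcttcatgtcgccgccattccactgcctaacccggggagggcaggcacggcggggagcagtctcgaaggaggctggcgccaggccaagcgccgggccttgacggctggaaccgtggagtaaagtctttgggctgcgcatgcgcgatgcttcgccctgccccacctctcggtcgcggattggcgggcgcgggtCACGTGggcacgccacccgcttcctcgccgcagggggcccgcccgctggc
LDHA (chr11:18394313-18394562, plus strand): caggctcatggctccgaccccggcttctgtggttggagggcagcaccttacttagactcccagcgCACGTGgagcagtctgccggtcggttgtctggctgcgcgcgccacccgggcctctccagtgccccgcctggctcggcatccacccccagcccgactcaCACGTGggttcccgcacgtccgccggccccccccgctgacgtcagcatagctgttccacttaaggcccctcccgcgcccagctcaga

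The letters begin 238 bases before the start site in MXD4, 193 in MNT, 50 in MLX, and 185 and 87 in LDHA, whose second start site has none. A match describes the letters and not binding, which was not analysed here.

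Most of the tested genes that MYC activates were called lower at 144 h. Of 64 such genes in 3 lists, 63 were tested, and 46 of them were called lower and 0 higher at 144 h by limma, with 0 higher at an unadjusted p under 0.05 as well, where 10.8% of all tested genes were lower and 13.6% higher. Their log2 fold change was negative for 61 of 63 at 144 h, against 47.3% of all tested genes, with a median of -0.56 against 0.03. The 2 others were IMP4 (0.02) and IMPDH1 (0.04), neither of them called. The count called lower depended on both control libraries: it was 23 without si-NT replicate 1 of 144 h (12 nucleolar, 10 metabolic and 1 cell cycle genes) and 19 without si-NT replicate 2 (10, 8 and 1). At 72 h, 1 of the 63 was called lower, where 0.557% of tested genes were, and 52 of 63 were negative, with a median of -0.16 against 0.06. Many of these genes also follow the cell cycle, and how many cells cycled was not measured in these libraries. In other cultures with SMARCA4 siRNAs, the paper measured this by flow cytometry. It reported more cells in G1 at 72 h and 144 h, and fewer in S phase at 144 h. With ERCC scaling 19 were called lower, 7 nucleolar, 8 metabolic and 4 cell cycle genes, and the medians of these lists relative to the median gene were -0.54, -0.66 and -0.84, against -0.48, -0.60 and -0.80 on the TPM scale. In bulk RNA, fewer cells of a kind and less RNA per cell cannot be told apart.

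Of 30 genes for the nucleolus and ribosome assembly, 22 were called lower and 0 higher at 144 h, with a median log2 fold change of -0.46. NCL, the nucleolar protein nucleolin, went from 905.46 and 902.18 TPM in si-NT libraries of 144 h to 423.67, 473.57, 490.23 and 425.1 TPM in BRG1 depleted libraries, or -1 on the log2 scale (SE 0.11, adjusted p = 0.000161, limma). NOLC1, a chaperone of small nucleolar ribonucleoproteins, was at -1.10 (adjusted p = 0.00174, limma), and TCOF1, a cofactor of ribosomal RNA transcription, at -1.15 (adjusted p = 0.00242, limma). The 8 genes that were not called had values from -0.40 to 0.02.

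Of 23 metabolic and nucleotide genes, 16 were called lower and 0 higher at 144 h, with a median of -0.57. ODC1, the first enzyme of polyamine synthesis, went from 261.07 and 281.39 TPM to 92.64, 102.36, 140.19 and 109.92 TPM, or -1.29 on the log2 scale (SE 0.19, adjusted p = 0.00113, limma). SHMT2, the mitochondrial enzyme of serine and folate metabolism, was at -1.05 at 144 h (adjusted p = 0.000539, limma), and it was the gene of the 3 lists called at 72 h, at -0.75 (adjusted p = 0.0262, limma). LDHA, lactate dehydrogenase A, went from 1208.22 and 777.35 TPM to between 425.17 and 498.83 TPM (log2 fold change -1.09, SE 0.26, adjusted p = 0.0109, limma). Its duplicates varied widely, and at 72 h a depleted library, siRNA 2 replicate 2 at 1263.09 TPM, lay close to the si-NT libraries at 1296.33 and 1302.9 TPM.

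Of 11 cell cycle genes 10 were tested and CCND2, at 0.11 TPM or less, was not. Of the 10, 8 were called lower and 0 higher at 144 h, with a median of -0.78. CDC25A, a phosphatase that activates cyclin-dependent kinases, was at -0.94 (adjusted p = 0.0185, limma), E2F2, an S phase transcription factor, at -0.93 (adjusted p = 0.025, limma), and TERT, the catalytic subunit of telomerase, at -0.90 (adjusted p = 0.0337, limma) from levels of 1.01 to 3.81 TPM. The cell cycle count was 1 without either si-NT library of 144 h, 5 without siRNA 2 replicate 1 and 4 without siRNA 3 replicate 2 of 144 h.

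Of 12 genes that MYC represses, 11 were tested and 3 were called higher and 0 lower at 144 h, where 13.6% of all tested genes were higher and 10.8% lower, with a median of 0.45 against 0.03. CDKN2B, the cyclin-dependent kinase inhibitor p15, went from a mean of 0.735 to 4.03 TPM (log2 fold change 1.50, SE 0.28, adjusted p = 0.00323, limma), CEBPA, a differentiation factor, from 1.43 to 3.88 TPM (0.99, adjusted p = 0.00993, limma), and KLF6 from 5.48 to 7.86 TPM (0.45, adjusted p = 0.0133, limma). The best known of the list, CDKN1A, which encodes p21, was at 0.09 (SE 0.54, adjusted p = 0.923, limma). Its level ranged from 34.13 to 144.68 TPM over all libraries, so its change is uncertain. All 3 calls were lost without si-NT replicate 2 of 144 h and with ERCC scaling, where the list median relative to the median gene was 0.40 against 0.43 on the TPM scale.

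**Figure D4:**
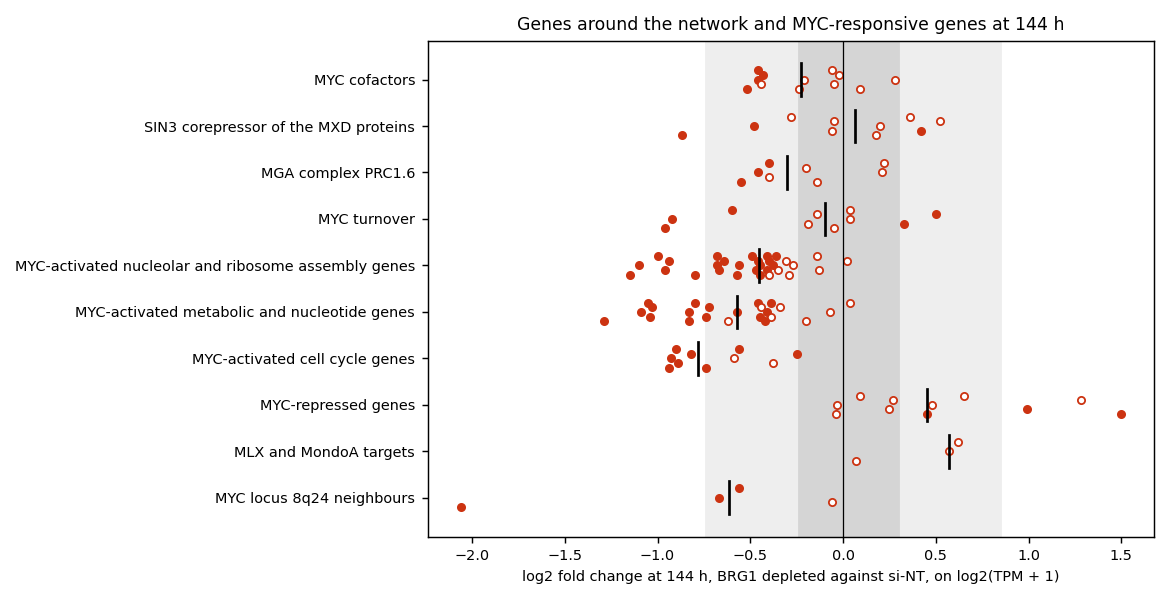
Log2 fold change at 144 h on log2(TPM + 1) (horizontal axis) of each tested gene in 10 lists (rows); filled points have an adjusted p under 0.05 by limma, open points do not, and black lines are list medians. The dark grey band holds the middle 50% of all tested genes, from -0.24 to 0.30, and the light band the middle 90%, from -0.74 to 0.85. The medians of the 3 lists of genes activated by MYC are -0.46, -0.57 and -0.78.

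Genes for proteins through which the network acts were called in both directions at 144 h, where 10.8% of all tested genes were lower and 13.6% higher. Of 12 MYC cofactors, 4 were called lower and 0 higher, with a median of -0.22: RUVBL1 (-0.46, adjusted p = 0.0136, limma), RUVBL2 (-0.46, adjusted p = 0.00614, limma), ACTL6A (-0.52, adjusted p = 0.0111, limma) and KAT2A (-0.43, adjusted p = 0.0326, limma). The first 3 are ATPase or actin-like subunits of the TIP60 histone acetyltransferase complex. ACTL6A is also a subunit of SWI/SNF, the BRG1 complex itself, where the paper reported no significant change of any other subunit gene. The paper's counts were normalised to the spike-ins and held to a fold change limit, which was not applied to the calls in this list. Of 10 genes of the SIN3 corepressor, 2 were called lower, SAP30 (-0.87, adjusted p = 0.00528, limma) and HDAC2 (-0.48, adjusted p = 0.00983, limma), and 1 higher, SUDS3 (0.42, adjusted p = 0.0278, limma), so the counts of this list lay near the shares over all tested genes. Of 9 partners of MGA in the Polycomb complex PRC1.6, 8 were tested and 0 were called higher and 3 lower, CBX3 (-0.55, adjusted p = 0.0014, limma), TFDP1 (-0.46, adjusted p = 0.0156, limma) and E2F6 (-0.40, adjusted p = 0.0263, limma). With ERCC scaling the genes called lower in these 3 lists were 0, 1 and 0, and none was called higher, by limma.

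Of 10 genes for MYC protein turnover, 3 were called lower and 2 higher at 144 h, where 10.8% and 13.6% of all tested genes were. With ERCC scaling 2 were called lower and 0 higher by limma. CIP2A (-0.96, adjusted p = 0.0134, limma) and AURKA (-0.92, adjusted p = 0.0206, limma) encode proteins that stabilise MYC, and SKP2 (-0.60, adjusted p = 0.00729, limma) a ubiquitin ligase subunit that both degrades and co-activates it. PPP2R5A (0.50, adjusted p = 0.0113, limma) encodes a subunit of the PP2A phosphatase that acts on MYC, and was among those called higher. AURKA, CIP2A and SKP2 also vary with the cell cycle.

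Around MYC on 8q24, 4 of 12 genes were tested and 3 were called lower at 144 h, where 10.8% of all tested genes were. PVT1, the long non-coding RNA gene next to MYC, was at 59.43 and 55.37 TPM in si-NT libraries of 144 h and at 26.07, 32.88, 41.94 and 44.38 TPM in BRG1 depleted libraries (log2 fold change -0.67, SE 0.22, adjusted p = 0.0413, limma). This call was lost in 11 of 22 alternatives, among them without si-NT replicate 1 (adjusted p = 0.192) or replicate 2 (0.16) of 144 h, without siRNA 2 replicate 1 (0.0774) or 2 (0.0798) of 144 h, without si-NT replicate 1 (0.0519) or 2 (0.052) of 72 h, and with ERCC scaling (0.0587), all by limma. At 72 h the siRNA 2 libraries were at 39.47 and 40.06 TPM, and the siRNA 3 libraries, at 61.8 and 53.68 TPM, overlapped si-NT. PCAT1 (-2.06, adjusted p = 4.1e-05, limma) was called lower at 144 h, and kept this call in all 21 alternatives that tested it. It was also called lower at 72 h (-1.5, adjusted p = 0.0029, limma), and the paper had already reported its fall at both time points. CASC8 (-0.56, adjusted p = 0.0479, limma) was just within the threshold, and its call was lost in 13 of 21 alternatives, among them without si-NT replicate 1 (0.164) or 2 (0.233) of 144 h, without siRNA 2 replicate 1 (0.09) or 2 (0.0807) or siRNA 3 replicate 1 (0.0975) of 144 h, without siRNA 2 replicate 1 (0.0577) or siRNA 3 replicate 1 (0.0549) or 2 (0.064) of 72 h, with a pseudocount of 0.1 (0.062) and with ERCC scaling (0.0905), all by limma. The log2 fold change of the protein-coding gene LRATD2 was -0.06 (adjusted p = 0.747, limma).

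Among all other tested genes, those whose profile over the 12 libraries was nearest to that of MYC were IMPDH2, SLC16A1, NCL, NAP1L1 and RABGGTB. Likeness was the root mean square difference of log2(TPM + 1) after each gene's mean was subtracted, and it was 0.0865, 0.114, 0.117, 0.117 and 0.123, where the profile of MYC itself spanned a root mean square of 0.444. IMPDH2 makes guanine nucleotides and SLC16A1 exports lactate. IMPDH2 was at 408.07 and 323.92 TPM in si-NT libraries of 72 h, 402.49 and 394.19 TPM at 144 h, and 179.33 to 206.33 TPM in BRG1 depleted libraries of 144 h. The 3 nearest to MXD4 were FBXO44, DMTN and WBP1, to MXI1 LRRC8D, XPOT and EIF1, and to MYCL TMEM164, MCRIP1 and SLC44A2.

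**Figure D5:**
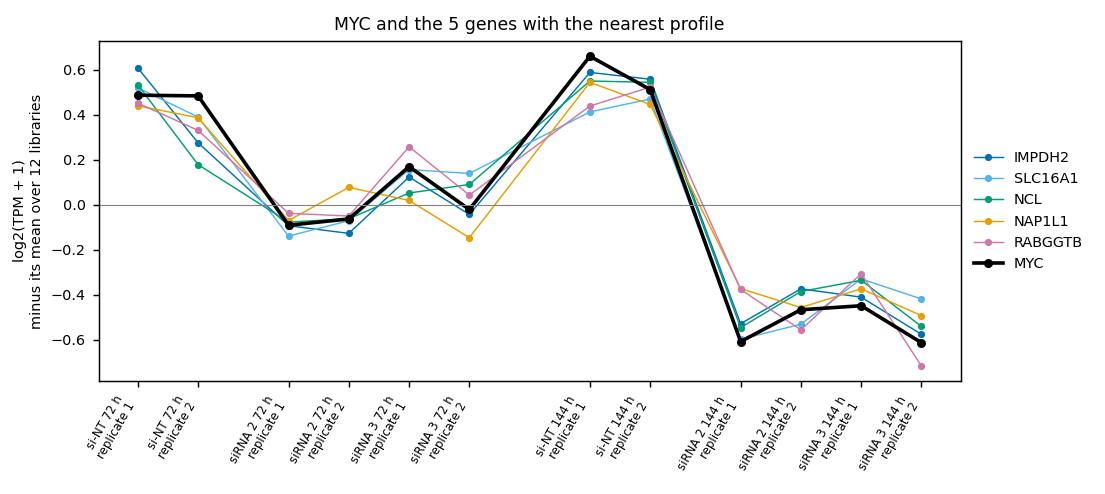
Log2(TPM + 1) of MYC (black) and its 5 nearest genes (colours) in each of the 12 libraries, after the mean of each gene over the libraries was subtracted; lines join libraries in the order shown and carry no time. All 6 genes are above their mean in the 4 si-NT libraries and below it in the 4 BRG1 depleted libraries of 144 h.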

How the data were processed

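RNA-seq of 12 LNCaP libraries was analysed. As the methods describe, the authors spiked the RNA with ERCC controls, prepared stranded libraries, mapped reads to GRCh37 (hg19) using STAR, obtained gene counts from featureCounts and deposited TPM with 2 decimals for 63568 genes and 92 spike-ins. By the methods, the authors also normalised their counts to the ERCC controls. The main fits here used the deposited TPM without this step, which the ERCC scaling comes closest to. The submitters' processing notes name Trim Galore 0.11.2, FastQC and STAR 2.4.0j. Each deposited column sums to 999999 to 1000001, so TPM keeps no read depth.

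From the deposited TPM, log2(TPM + 1) was taken for the 16337 genes that reached 1 TPM in 2 or more libraries and fitted with limma 3.58.1 (R 4.3.3; lmFit, eBayes with trend) in 4 groups, or in 6 for single siRNAs, with Benjamini-Hochberg adjustment over all genes. The procedure was tested on simulated data, with 200 of the 16337 genes changed. Of genes changed by 0.5 on the log2 scale, 7% were called at 72 h and 5.5% at 144 h. Of genes changed by 1, 68.5% and 68% were called. A gene that was not called may therefore have changed by 0.5. These shares need not hold in the data, where more genes were called. Figures and promoter searches used Python 3.11.15, pandas 2.3.3, NumPy 2.4.6 and matplotlib 3.10.9. The siRNA columns carry a number that was not matched to a sample, so they were used as libraries of their group.

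The members and the 13 gene lists were chosen with earlier results of these data known. Named were all members, SMARCA4, up to 3 called falls and 3 called rises per list at 144 h (every gene of lists of 3 or fewer), and the nearest profiles. ACTL6A, KAT2A, CDKN1A, CCND2, LRATD2, IMP4, IMPDH1, the marker genes without a change and the genes of shared promoters were otherwise named after their values were seen. Some genes that the rule names are not reported here. Coordinates are from GENCODE release 44 lifted to GRCh37. The alternatives were a pseudocount of 0.1, no filter or a mean of at least 5 TPM, median-of-ratios, quantile and ERCC scaling, a replicate block, no trend, the libraries of 1 time point, pooled si-NT libraries and each library left out.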

Additional observations from a re-analysis of the deposited data

Results flagged for a closer look

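Among 96 groups of 4 BRG1 depleted libraries, for members and named genes, 2 had a library far from the other 3, where chance gives about 1 in 20. E2F2 at 72 h was at 3.43 TPM in replicate 2 of siRNA 2, against 5.13 to 5.22 TPM in the other 3 libraries. In si-NT cells of 72 h it was also low in replicate 2, at 3.73 TPM against 7.87 TPM in replicate 1. These same 2 libraries were the lowest of 72 h for TXNIP, AURKA and CDC25A as well, though not for MYC, and the cause was not tested. CBX3 at 144 h was at 224.37 TPM in replicate 2 of siRNA 2, against 234.14 to 236 TPM. None of the 10 network genes had such a library at either time point.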

How the results depend on the processing

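Values of members, lists and named genes were recomputed under each alternative, 1799 in all, of which 1604 kept their direction and their side of the threshold. MYC at 144 h kept its call in all 22. Under ERCC scaling 0 members were called at 72 h and 1 at 144 h, MAX (-0.22), MLX (-0.36) and ARRDC3 (-0.32) at 144 h and MGA (-0.14) at 72 h turned negative, the genes called lower at 144 h were 7 nucleolar, 8 metabolic and 4 cell cycle genes, 0 genes repressed by MYC were called higher, and over all lists other than markers 1 gene was lower at 72 h, and 23 lower and 0 higher at 144 h, where the deposited TPM gave 2, 61 and 7. With only the 72 h libraries 0 members and 0 list genes were called at 72 h. Pooled si-NT libraries gave 15 list genes lower and 3 higher at 72 h and 4 cell cycle genes at 144 h, with MGA at -0.07 and MAX at 0.01 at 72 h and MLX at -0.03 at 144 h. MGA at 72 h was also at -0.03 with median-of-ratios and with quantile scaling. A mean of at least 5 TPM left 1 gene repressed by MYC called higher and 1 list gene lower at 72 h, median-of-ratios gave 4 lower at 72 h, and no filter gave 5 cell cycle genes lower. With MNT and MGA left out of the antagonists, the share of MYC and MYCL was 66.8% and 69.3% in si-NT cells and 60.1% and 50.6% in BRG1 depleted cells at 72 h and 144 h. The causes were not tested, other than fewer genes or libraries where the alternative removes them.

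With each library left out in turn, 0 to 2 members were called at 72 h (0 without si-NT replicate 2 of 72 h) and 2 to 4 at 144 h (2 without si-NT replicate 2 of 144 h). Called lower at 144 h were 10 to 23 nucleolar, 8 to 17 metabolic and 1 to 8 cell cycle genes, and called higher 0 to 4 genes repressed by MYC. Over all lists 1 to 3 genes were lower and 0 to 1 higher at 72 h, and 22 to 63 lower and 0 to 10 higher at 144 h, the lowest without si-NT replicate 2 of 144 h. Values that crossed 0 were those of MAX (-0.25 to 0.12), MGA (-0.06 to 0.13), MNT (-0.32 to 0.26) and MXD3 (-0.34 to 0.02) at 72 h, MLX (-0.02 to 0.08) and ARRDC3 (-0.08 to 0.29) at 144 h, and MNT between time points (-0.39 to 0.19), of which none was called in any of these fits.

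Replicate numbers did not pair the libraries throughout. Differences between replicates 1 and 2 had correlations across genes of -0.23 to 0.30 between pairs of siRNA and time point. Their median was -0.02, and 2 of 15 were over 0.1. With the replicate number as a block, 2 and 4 members were called at 72 h and 144 h, as without it, list genes called lower at 144 h went from 61 to 56, and PVT1 (adjusted p = 0.0553, limma) and CASC8 (adjusted p = 0.0642, limma) were the named genes that lost their call. Of 32 list genes that were called at 144 h and followed through the alternatives, 18 lost their call without si-NT replicate 1 of 144 h, 22 without si-NT replicate 2 of 144 h and 20 with ERCC scaling, while NCL, NOLC1, TCOF1, ODC1, SHMT2 and PCAT1 kept it in every alternative that tested them. The depth behind each TPM is unknown, and 2 si-NT libraries per time point limit every comparison.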
